A study of Mus musculus with 5 samples.

Results

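The 42 genes described here act in G2 and mitosis, and they were chosen by name for that role. No measured value enters the rule, but earlier results of these data were known when the list was made. They are 42 of the 39056 genes in a count table of blood stem and progenitor cells, and all 42 were present and passed the filter on low counts. RNA was sequenced from Lin-Sca-1+Kit+ (LSK) cells, a marrow fraction enriched in stem cells and early progenitors, sorted from C57BL/6 mice at postnatal day 15 with about 12000 cells per library. There were 2 wild-type (WT) libraries and 3 libraries from mice labelled as Gabbr1 null mutants, which lack a subunit of the GABA-B receptor for the neurotransmitter GABA. The labels and notes used here do not give the deleted part of Gabbr1, the litter of the mice, or whether a library came from 1 animal. They do not give the sex either, on which X-linked and Y-linked counts below bear. The protocol speaks of 4 mice per genotype. The p-values therefore describe how much these libraries vary, which may be technical. The question was whether transcripts of the mitotic machinery differ when blood progenitors lack this receptor, since the series title names proliferation.

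Nearly all of the mitotic genes had slightly higher mean levels in the null libraries, but no single gene passed the test. Of the 42 genes, 40 had a positive log2 fold change (null over WT), against 49.2% of the 13467 genes tested. Their median was 0.24, which is 1.18-fold, and the median over all genes tested was -0.0045. With edgeR's quasi-likelihood test and Benjamini-Hochberg adjusted p under 0.05 as the threshold, 0 of 42 were higher and 0 lower, where 2.15% of all genes tested were higher and 0.334% lower. DESeq2 and limma-voom also called 0 of 42, where DESeq2 called 2.5% of all genes higher and 0.379% lower, and limma-voom 1.62% higher and 0.26% lower. Before adjustment, at p under 0.05 in edgeR, 17 of the 42 were higher (7.99% of all genes tested) and 0 lower (4.84%). The same count was 11 in DESeq2 (6.82% of all genes higher and 3.11% lower) and 16 in limma-voom (7.55% higher and 4.84% lower). In edgeR it was 4 without null library 3, and the share of all genes tested is not given for that fit. There 38 of the 42 genes kept a log2 fold change above 0 (median 0.17). Of the 42, 34 did so without WT library 1 (median 0.26) and 39 without WT library 2 (median 0.21). Each of these fits leaves a lone WT library. In 24 of 42 genes every null library lay above every WT library, which held for 15.5% of all genes tested. In 0 of 42 every null library lay below, which held for 13.7%. All were read from the same 5 libraries, so these counts are not 42 separate observations. In bulk RNA a larger share of dividing cells and more RNA per dividing cell cannot be told apart.

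Mitosis is prepared in G2, when cyclin A and cyclin B bind the kinase CDK1 and their transcripts accumulate. CDK1 activity condenses chromosomes and builds the spindle, kinetochores attach each chromosome to microtubules, and the spindle checkpoint holds back the anaphase-promoting complex (APC/C) until attachment is complete. APC/C with CDC20 then marks securin and cyclin B for destruction, sister chromatids part, and the central spindle directs the cell to divide. Most long-term stem cells in adult marrow are quiescent, while progenitors and the blood-forming cells of young mice divide more often. In quiescent cells the DREAM complex, which includes the MuvB subunits, represses many mitotic genes through a short promoter element called the CHR (cell cycle genes homology region), and B-MYB and FOXM1 later join MuvB to activate them. NF-Y binds CCAAT boxes in many of the same promoters.

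As checks of the whole table, libraries held between 6972753 and 8150774 counts. Gabbr1 itself had 49.5 and 57.4 CPM in the WT pair, against 38.5, 34.8 and 33.0 CPM in null (log2 fold change -0.59 ± 0.13 SE, edgeR adjusted p = 0.0361). Which exons the allele removes is not stated, so the remaining reads do not test the labels. Kit, the sort marker, averaged 1022 ± 37.7 CPM for WT (mean ± SD, n = 2) against 912 ± 66.4 CPM for null (n = 3). Null library 1 had 22532 counts of the X-linked transcript Xist and 0 counts over 4 Y-linked genes, and the other libraries had at most 21 and at least 1140. By these counts the cells of both WT libraries and of null libraries 2 and 3 were male. Those of null library 1 were female, so sex was not balanced between the genotypes. Without that library 40 of the 42 genes still lay above 0, and the median log2 fold change was 0.22. In tests on simulated counts for this comparison, 28.3% of 46 genes changed 1.5-fold were recovered, and 11 of 151 calls fell on unchanged genes. The changed genes were drawn at random from all genes tested, at any level, so this rate is not specific to the 42. The largest fitted difference among the 42 genes was 1.39-fold. All 42 genes had a 95% interval whose upper bound lay below a log2 fold change of 1.

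Many promoters of these genes hold both elements, which the choice of genes did not use. RefSeq promoter windows (GRCm38.p6, 250 bases before to 50 after a transcript start, the first window listed for a gene) were matched by symbol for 35 of the 42 genes, and Ccna2, Cdc25c, Bora, Aurkb, Tpx2, Dlgap5 and Kif20a had no entry. The CHR hexamer TTTGAA, read on both strands, was in 26 of the 35 windows (74.3%), against 18.1% of 27025 gene windows and 12% of 9780 windows of genes tested. Within 50 bases of the start it was in 23 of 35 (65.7%), against 4.92% of all gene windows. The variant TTCGAA was in 3 of 35 (8.57%), against 1.57%. CCAAT, read on both strands, was in 27 of 35 (77.1%), against 37.9%, and 20 of 35 (57.1%) had at least 2 such matches, against 12.2%. Both TTTGAA and CCAAT were present in 22 of 35 windows (62.9%), against 7.12% of all gene windows. Of 105 windows of other mitosis genes, 39% held TTTGAA, 56.2% held CCAAT and 28.6% held both. In the same windows of 43 S phase and DNA replication genes TTTGAA was found in 14% and CCAAT in 60.5%. A match of letters is a description of the window and does not show that a factor binds there.

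**Figure D1:**
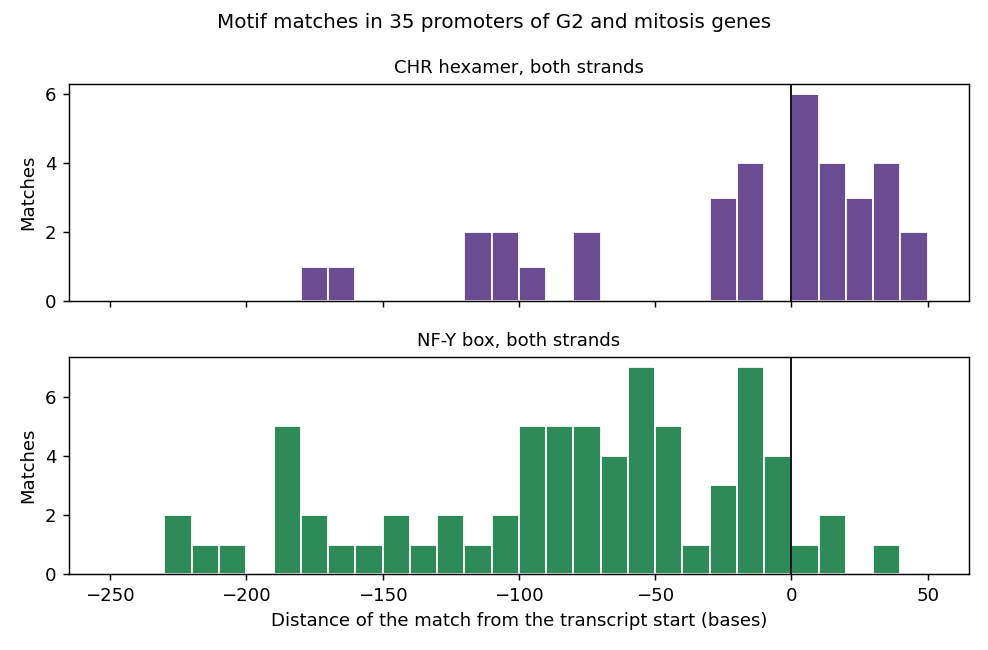
Distance of each match from the transcript start (bases, x axis) against the number of matches per 10 bases (y axis) in the 35 promoter windows, with the CHR hexamer TTTGAA above and the CCAAT box bound by NF-Y below. Most matches of the CHR hexamer lie within 50 bases of the start and most CCAAT boxes lie upstream of it.

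5 promoters are printed from 250 bases before to 30 after the start, because they belong to the kinase and cyclins of mitotic entry and to genes described in detail later. Capitals mark the CHR hexamer TTTGAA, its variant TTCGAA and the CCAAT box, or the reverse complement of any of these. They are Cdk1 (chr10:69352883-69353162, minus strand), Ccnb2 (chr9:70421525-70421804, minus strand), Ube2c (chr2:164769679-164769958, plus strand), Top2a (chr11:99024160-99024439, minus strand) and Ccnb1 (chr13:100786457-100786736, minus strand), all in GRCm38.p6.
Cdk1: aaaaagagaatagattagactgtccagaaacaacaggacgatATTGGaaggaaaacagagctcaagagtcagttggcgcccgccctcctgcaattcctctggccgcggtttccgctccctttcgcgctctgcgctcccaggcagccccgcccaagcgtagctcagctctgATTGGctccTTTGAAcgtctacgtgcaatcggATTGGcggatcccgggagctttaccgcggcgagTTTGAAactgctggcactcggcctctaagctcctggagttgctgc
Ccnb2: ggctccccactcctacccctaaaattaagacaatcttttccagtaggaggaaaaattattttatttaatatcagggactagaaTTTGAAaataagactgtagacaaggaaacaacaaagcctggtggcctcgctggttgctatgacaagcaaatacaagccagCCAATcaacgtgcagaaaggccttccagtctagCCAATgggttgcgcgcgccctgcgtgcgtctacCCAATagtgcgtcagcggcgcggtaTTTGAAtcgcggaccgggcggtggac
Ube2c: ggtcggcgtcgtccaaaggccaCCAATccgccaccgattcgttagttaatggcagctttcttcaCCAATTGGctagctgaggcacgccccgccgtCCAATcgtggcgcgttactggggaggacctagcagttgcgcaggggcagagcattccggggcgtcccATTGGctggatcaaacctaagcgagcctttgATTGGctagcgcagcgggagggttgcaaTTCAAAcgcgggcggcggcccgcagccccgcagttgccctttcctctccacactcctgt
Top2a: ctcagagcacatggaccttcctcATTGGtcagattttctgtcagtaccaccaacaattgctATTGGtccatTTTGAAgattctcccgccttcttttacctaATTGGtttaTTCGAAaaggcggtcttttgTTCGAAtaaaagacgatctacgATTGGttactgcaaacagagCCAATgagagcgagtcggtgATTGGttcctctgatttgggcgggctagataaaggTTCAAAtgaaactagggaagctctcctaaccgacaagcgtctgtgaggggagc
Ccnb1: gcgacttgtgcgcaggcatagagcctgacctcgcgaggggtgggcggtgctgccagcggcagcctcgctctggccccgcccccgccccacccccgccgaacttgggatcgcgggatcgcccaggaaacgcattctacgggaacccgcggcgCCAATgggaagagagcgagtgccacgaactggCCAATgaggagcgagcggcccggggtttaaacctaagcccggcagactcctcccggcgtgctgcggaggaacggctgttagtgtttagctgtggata
In Cdk1 the hexamer starts 71 and 15 bases before the transcript start, with CCAAT boxes in reverse orientation 208, 80 and 48 bases before it. Ccnb2 carries 3 CCAAT boxes 87, 54 and 21 bases before the start, and the hexamer 167 bases before the start and again at base 5 of the transcript. Ube2c has the hexamer on the other strand 29 bases before the start, and 2 of its 6 CCAAT matches overlap (CCAATTGG reads as a box on each strand). Top2a holds 2 hexamers and both copies of the variant TTCGAA found in its window. Ccnb1 has 2 CCAAT boxes, 99 and 67 bases before the start, and TTTGAA was not in this window.

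8 shorter stretches, from 60 bases before to 30 after the start, were picked from genes of checkpoint, kinetochore, spindle and cytokinesis whose hexamer lies near the start. They are Cdc20 (chr4:118437314-118437403, minus strand), Kif11 (chr19:37376322-37376411, plus strand), Ttk (chr9:83834629-83834718, plus strand), Cenpa (chr5:30666826-30666915, plus strand), Cenpf (chr1:189688057-189688146, minus strand), Cdca8 (chr4:124936888-124936977, minus strand), Hmmr (chr11:40733408-40733497, minus strand) and Kif23 (chr9:61946770-61946859, minus strand).
Cdc20: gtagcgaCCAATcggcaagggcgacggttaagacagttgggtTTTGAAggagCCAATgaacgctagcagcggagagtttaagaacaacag
Kif11: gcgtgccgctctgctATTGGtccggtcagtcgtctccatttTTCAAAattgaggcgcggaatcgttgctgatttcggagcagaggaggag
Ttk: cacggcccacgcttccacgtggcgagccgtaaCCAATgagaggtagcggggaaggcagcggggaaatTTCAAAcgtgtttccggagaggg
Cenpa: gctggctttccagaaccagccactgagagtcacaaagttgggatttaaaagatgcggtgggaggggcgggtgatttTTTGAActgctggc
Cenpf: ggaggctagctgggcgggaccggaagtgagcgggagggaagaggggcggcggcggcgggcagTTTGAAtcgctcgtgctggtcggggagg
Cdca8: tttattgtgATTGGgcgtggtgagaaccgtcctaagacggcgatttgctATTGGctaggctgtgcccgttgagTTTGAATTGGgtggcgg
Hmmr: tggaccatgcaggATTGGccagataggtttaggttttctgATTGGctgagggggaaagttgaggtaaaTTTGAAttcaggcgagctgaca
Kif23: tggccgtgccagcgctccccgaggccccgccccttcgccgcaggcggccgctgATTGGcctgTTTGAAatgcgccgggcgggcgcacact
The hexamer begins 18 bases before the start in Cdc20 and 19 bases before it in Kif11. It begins between base 3 and base 17 of the transcript in Ttk, Cenpa, Cenpf, Cdca8, Hmmr and Kif23. Not all genes of these roles are alike, and it begins 103 bases before the start in Kif2c and 101 in Ckap2. The windows of Bub1, Cenpe, Nuf2, Birc5, Nusap1, Tacc3 and Gtse1 do not hold it, though that of Bub1 holds the variant TTCGAA at base 15. No form of the CHR other than TTTGAA and TTCGAA was searched. The median log2 fold change was 0.18 over the 26 genes whose window holds TTTGAA, 0.27 over the 9 whose window does not and 0.24 over the 7 with no window. This difference was not tested.

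Among genes of mitotic entry, all 10 had a positive log2 fold change, with a median of 0.18. 3 were higher at an unadjusted p under 0.05 (7.99% of all genes tested), and in 4 every null library lay above WT (15.5% of all genes tested). Ccnb1, cyclin B1, which activates CDK1 at mitotic entry (ENSMUSG00000041431.16, chromosome 13, 100778650 to 100786570, mm10), stood at 109 and 89.6 CPM in WT libraries 1 and 2, against 149.5, 111 and 155 CPM in null libraries 1, 2 and 3 (CPM are counts scaled to the total count of the library, with TMM factors). Null libraries 1 and 3 stood well above both WT libraries, while null library 2 lay just above WT library 1. It averaged 99.5 ± 14.03 CPM for WT (mean ± SD, n = 2) against 139 ± 24.1 CPM for null (n = 3), a log2 fold change of 0.48 ± 0.15 (standard error, adjusted p = 0.165 by edgeR), with a 95% interval of 0.15 to 0.81. This was the largest log2 fold change of the 42, and it passed without null library 2 (edgeR adjusted p = 0.0285) and with no filter on low counts (edgeR adjusted p = 0.0069), but in no other fit run. The annotation also holds a processed pseudogene, Ccnb1-ps, and how reads that match both were treated is not stated. Ccna2, cyclin A2, which acts in S phase and G2 (ENSMUSG00000027715.9, chromosome 3, 36564865 to 36572150), stood at 286 and 230.4 CPM in WT libraries 1 and 2, against 339, 314 and 359.9 CPM in null libraries 1, 2 and 3. Every null library lay above both WT libraries, and the log2 fold change was 0.39 ± 0.13 (standard error, adjusted p = 0.192 by edgeR), or 0.241 without WT library 2. 510 of its 4083 exonic bases overlap Exosc9 on the opposite strand.

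The partner kinase and the second B-type cyclin differed less. Cdk1 (ENSMUSG00000019942.13, chromosome 10, 69335146 to 69352938) stood at 145 and 154 CPM in WT libraries 1 and 2, against 167, 157 and 186 CPM in null libraries 1, 2 and 3. The groups did not overlap, but null library 2 exceeded WT library 2 by only a few CPM, and the log2 fold change was 0.18 ± 0.11 (standard error, adjusted p = 0.55 by edgeR), or 0.114 without null library 3. Ccnb2, cyclin B2 (ENSMUSG00000032218.7, chromosome 9, 70407692 to 70421547), stood at 144 and 160.1 CPM in WT libraries 1 and 2, against 177, 150.3 and 186 CPM in null libraries 1, 2 and 3. WT library 2 lay above null library 2, so the groups overlapped, and the log2 fold change was 0.17 ± 0.12 (standard error, adjusted p = 0.608 by edgeR) with a 95% interval of -0.09 to 0.44. It was 0.109 without null library 3 and 0.087 without WT library 1. Cdc25c, a phosphatase that removes the inhibitory phosphates of CDK1, stood at 31.02 and 27.9 CPM in WT libraries 1 and 2, against 34.6, 40.2 and 37.4 CPM in null libraries 1, 2 and 3. All 3 null libraries were above WT, with a log2 fold change of 0.34 ± 0.14 (standard error, adjusted p = 0.329 by edgeR). Plk1, the polo-like kinase of mitotic entry and spindle assembly, had a log2 fold change of 0.26 ± 0.14 (standard error, adjusted p = 0.46 by edgeR), and Bora, a protein that helps Aurora A activate PLK1, had 0.16 ± 0.14 (standard error, adjusted p = 0.707 by edgeR). Both overlapped between groups.

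3 genes of this group had log2 fold changes under 0.1. Aurka, the Aurora A kinase of centrosomes, stood at 73.1 and 77.8 CPM in WT libraries 1 and 2, against 73.7, 66.1 and 88.7 CPM in null libraries 1, 2 and 3. Null library 2 was the lowest of the 5 and null library 3 the highest, and the log2 fold change was 0.015 ± 0.13 (standard error, adjusted p = 0.983 by edgeR). Cks1b and Cks2 encode small proteins that bind CDK1 and promote phosphorylation of its substrates. Cks1b stood at 96.5 and 127 CPM in WT libraries 1 and 2, against 114, 94.2 and 128 CPM in null libraries 1, 2 and 3, with a log2 fold change of 0.0025 ± 0.15 (standard error, adjusted p = 0.997 by edgeR) whose sign turned in 6 of 11 alternative fits. Cks2 stood at 73.4 and 50.3 CPM in WT libraries 1 and 2, against 70.5, 49.4 and 74.96 CPM in null libraries 1, 2 and 3, with a log2 fold change of 0.069 ± 0.19 (standard error, adjusted p = 0.931 by edgeR). Both genes spread nearly as widely within WT as within null, and WT library 2 was the higher of its pair for Cks1b and the lower for Cks2. Per exon length, the level of Cks1b over that of Cks2 came to 0.81 and 1.56 in the WT pair, against 0.99, 1.17 and 1.05 in the null libraries.

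Spindle checkpoint and APC/C genes had a median log2 fold change of 0.31 over 5 genes. 3 were higher at an unadjusted p under 0.05 (7.99% of all genes tested), and in 4 of 5 every null library lay above WT (15.5%). Ube2c, the ubiquitin-conjugating enzyme that works with APC/C (ENSMUSG00000001403.13, chromosome 2, 164769898 to 164778822), stood at 129 and 138 CPM in WT libraries 1 and 2, against 178, 149 and 202 CPM in null libraries 1, 2 and 3. All null libraries were above both WT libraries, null library 3 the most. It averaged 134 ± 6.47 CPM for WT (mean ± SD, n = 2) against 176 ± 26.6 CPM for null (n = 3), with a log2 fold change of 0.40 ± 0.13 (standard error, adjusted p = 0.186 by edgeR) that passed with no filter on low counts (edgeR adjusted p = 0.0488) and in no other fit run. 592 of its 2600 exonic bases overlap Tnnc2 on the opposite strand, and whether counting used strand is not stated. Ttk, the kinase MPS1 that starts checkpoint signalling at unattached kinetochores, stood at 28.8 and 25.1 CPM in WT libraries 1 and 2, against 31.8, 36.8 and 34.9 CPM in null libraries 1, 2 and 3. The groups were apart, with null library 2 the highest, and the log2 fold change was 0.36 ± 0.15 (standard error, adjusted p = 0.329 by edgeR). Bub1, another checkpoint kinase, stood at 37.8 and 34.7 CPM in WT libraries 1 and 2, against 46.5, 47.6 and 40.8 CPM in null libraries 1, 2 and 3, a log2 fold change of 0.31 ± 0.13 (standard error, adjusted p = 0.351 by edgeR). Its relative Bub1b, which encodes BUBR1, a part of the complex that inhibits APC/C, had 0.18 ± 0.11 (standard error, adjusted p = 0.548 by edgeR). Cdc20, the activator of APC/C, stood at 106 and 119 CPM in WT libraries 1 and 2, against 114, 117 and 144 CPM in null libraries 1, 2 and 3. Only null library 3 stood above both WT libraries, and the log2 fold change was 0.15 ± 0.13 (standard error, adjusted p = 0.703 by edgeR). Without null library 3 it was 0.034, and without WT library 1 it was 0.054.

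Kinetochore and centromere genes had a median log2 fold change of 0.18 over 9 genes. 8 were positive, 2 were higher at an unadjusted p under 0.05 (7.99% of all genes tested), and in 5 every null library lay above WT (15.5%). Nuf2 and Ndc80 encode partners in the complex that grips spindle microtubules. Nuf2 stood at 72.6 and 60.95 CPM in WT libraries 1 and 2, against 86.6, 79.2 and 75.7 CPM in null libraries 1, 2 and 3, a log2 fold change of 0.27 ± 0.12 (standard error, adjusted p = 0.374 by edgeR), or 0.147 without WT library 2. Ndc80 stood at 31.3 and 27.6 CPM in WT libraries 1 and 2, against 34.9, 36.9 and 36.5 CPM in null libraries 1, 2 and 3, a log2 fold change of 0.29 ± 0.14 (standard error, adjusted p = 0.407 by edgeR). Both genes had every null library above WT, and their 2 WT libraries differed in the same direction, with WT library 1 higher. Birc5, which encodes survivin, a part of the chromosomal passenger complex, stood at 101 and 96.98 CPM in WT libraries 1 and 2, against 121, 108 and 122 CPM in null libraries 1, 2 and 3, and its WT libraries were close together. The log2 fold change was 0.24 ± 0.11 (standard error, adjusted p = 0.385 by edgeR). Aurkb, the kinase of the same complex, had a log2 fold change of 0.24 ± 0.11 (standard error, adjusted p = 0.403 by edgeR), and Cdca8, its borealin subunit, had 0.10 ± 0.11 (standard error, adjusted p = 0.789 by edgeR).

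The genes that load and hold the centromere had small log2 fold changes. Cenpa, the histone H3 variant that marks centromeres, stood at 190.2 and 191 CPM in WT libraries 1 and 2, against 225, 199 and 226 CPM in null libraries 1, 2 and 3. Null library 2 was only slightly above the 2 WT libraries, and the log2 fold change was 0.18 ± 0.11 (standard error, adjusted p = 0.536 by edgeR). Hjurp, the chaperone that deposits CENP-A, stood at 668 and 748 CPM in WT libraries 1 and 2, against 718, 712 and 686 CPM in null libraries 1, 2 and 3. It had the highest counts of the 42 genes, with no correction for length. The 3 null libraries fell between the 2 WT libraries, and the log2 fold change was -0.0054 ± 0.12 (standard error, adjusted p = 0.993 by edgeR). Cenpe, a kinesin of the kinetochore, had a log2 fold change of 0.051 ± 0.13 (standard error, adjusted p = 0.928 by edgeR), and Cenpf, a large kinetochore protein, had 0.090 ± 0.14 (standard error, adjusted p = 0.87 by edgeR). Cenpf stood at 43.6 and 58.7 CPM in WT libraries 1 and 2, against 51.96, 59.1 and 51.9 CPM in null libraries 1, 2 and 3, so that the gap between the WT libraries spanned all of the null values but null library 2, which lay just above WT library 2.

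**Figure D2:**
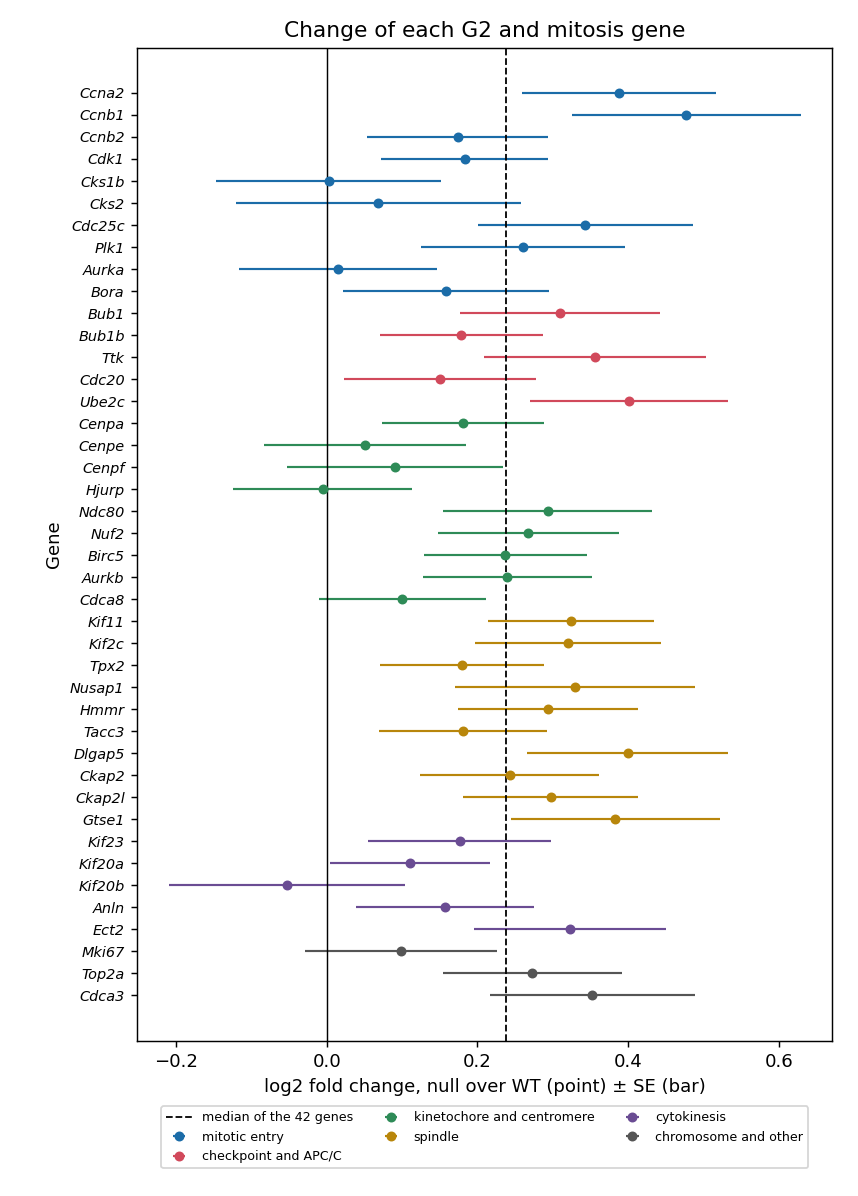
Log2 fold change of each of the 42 genes (null over WT, x axis; points, with bars of ± 1 SE; WT n = 2, null n = 3), ordered and coloured by role. 40 of 42 points lie above 0, the dashed line is the median of 0.24, and the lowest adjusted p is 0.165.

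All 10 spindle genes had a positive log2 fold change, with a median of 0.31. 6 genes were higher at an unadjusted p under 0.05 (7.99% of all genes tested), and in 8 of 10 every null library was above every WT library (15.5%). Dlgap5, which encodes HURP, a protein that stabilises kinetochore microtubules, stood at 78.03 and 57.7 CPM in WT libraries 1 and 2, against 94.7, 86.6 and 87.7 CPM in null libraries 1, 2 and 3. The log2 fold change was 0.40 ± 0.13 (standard error, adjusted p = 0.197 by edgeR), and WT library 2 was far below WT library 1. Without WT library 2 it was 0.199. Kif11, the motor EG5 that pushes spindle poles apart, stood at 148 and 136 CPM in WT libraries 1 and 2, against 167, 174 and 193 CPM in null libraries 1, 2 and 3. Its groups did not overlap, and the log2 fold change was 0.32 ± 0.11 (standard error, adjusted p = 0.204 by edgeR). Gtse1, a microtubule-binding protein of G2 and mitosis, had a log2 fold change of 0.38 ± 0.14 (standard error, adjusted p = 0.238 by edgeR), and Kif2c, a kinesin that takes microtubules apart at centromeres, had 0.32 ± 0.12 (standard error, adjusted p = 0.283 by edgeR). Both had null library 3 as the highest.

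Among the other spindle genes, Hmmr, a spindle protein also known as a hyaluronan receptor, had a log2 fold change of 0.29 ± 0.12 (standard error, adjusted p = 0.321 by edgeR). Ckap2l and Ckap2, microtubule-associated relatives of each other, had 0.30 and 0.24, with every null library above WT for both (edgeR adjusted p = 0.289 and 0.425). Tpx2, which activates Aurora A on the spindle, stood at 213 and 195 CPM in WT libraries 1 and 2, against 226, 221 and 247 CPM in null libraries 1, 2 and 3. The groups did not overlap, and the log2 fold change was 0.18 ± 0.11 (standard error, adjusted p = 0.551 by edgeR). Nusap1, which bundles spindle microtubules, stood at 143 and 93.4 CPM in WT libraries 1 and 2, against 151, 136 and 160.2 CPM in null libraries 1, 2 and 3. Here WT library 1 lay among the null libraries and WT library 2 far below all of them, so the log2 fold change of 0.33 ± 0.16 (standard error, adjusted p = 0.42 by edgeR) rests on WT library 2: it was 0.055 without that library. Tacc3, a spindle protein phosphorylated by Aurora A, had a log2 fold change of 0.18 ± 0.11 (standard error, adjusted p = 0.559 by edgeR).

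Cytokinesis genes had a median log2 fold change of 0.16 over 5 genes, and in 1 of them every null library lay above WT, a share close to the 15.5% of all genes tested. That gene was Ect2, the exchange factor that activates RHOA at the cell equator. Ect2 stood at 120.5 and 91.6 CPM in WT libraries 1 and 2, against 128, 131 and 139.6 CPM in null libraries 1, 2 and 3, a log2 fold change of 0.32 ± 0.13 (standard error, adjusted p = 0.294 by edgeR). WT library 2 was the lowest by a wide margin and WT library 1 was near null library 1. Without WT library 2 the log2 fold change was 0.139. Kif23, a kinesin of the central spindle, stood at 146 and 116 CPM in WT libraries 1 and 2, against 154, 139 and 151 CPM in null libraries 1, 2 and 3, and WT library 1 lay above null library 2. Its log2 fold change was 0.18 ± 0.12 (standard error, adjusted p = 0.605 by edgeR), and 0.022 without WT library 2. Anln, the actin-binding anillin of the contractile ring, had 0.16 ± 0.12 (standard error, adjusted p = 0.65 by edgeR), and the central spindle kinesin Kif20a had 0.11 ± 0.11 (standard error, adjusted p = 0.748 by edgeR), where 1271 of 4338 exonic bases overlap Cdc23 on the opposite strand. Kif20b, a related kinesin that acts late in cytokinesis, stood at 31.9 and 31.3 CPM in WT libraries 1 and 2, against 25.6, 32.5 and 33.3 CPM in null libraries 1, 2 and 3. Null library 1 was the lowest of the 5, the others lay close together, and the log2 fold change was -0.053 ± 0.16 (standard error, adjusted p = 0.937 by edgeR). Without null library 1 it was 0.059.

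Mki67 and Top2a are widely used to mark dividing cells. Mki67, which encodes the Ki-67 protein that coats mitotic chromosomes (ENSMUSG00000031004.8, chromosome 7, 135689784 to 135716361), stood at 212 and 267 CPM in WT libraries 1 and 2, against 236, 274 and 259 CPM in null libraries 1, 2 and 3. WT library 2 was above 2 of the 3 null libraries. The log2 fold change was 0.099 ± 0.13 (standard error, adjusted p = 0.827 by edgeR) with a 95% interval of -0.18 to 0.38, and it was -0.070 without WT library 1. Top2a, the topoisomerase that untangles sister chromatids (ENSMUSG00000020914.17, chromosome 11, 98992943 to 99024189), stood at 502 and 451 CPM in WT libraries 1 and 2, against 558, 575 and 595 CPM in null libraries 1, 2 and 3. Every null library was above both WT libraries, and the log2 fold change was 0.27 ± 0.12 (standard error, adjusted p = 0.357 by edgeR), with an interval of 0.01 to 0.53. Cdca3, a mitotic regulator also called TOME-1, stood at 115 and 123 CPM in WT libraries 1 and 2, against 151, 128 and 177 CPM in null libraries 1, 2 and 3. It had a log2 fold change of 0.35 ± 0.14 (standard error, adjusted p = 0.279 by edgeR), with null library 3 far above the rest. Without that library it was 0.229. The intervals of Mki67 and Top2a overlap, and the difference between them was not tested.

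**Figure D3:**
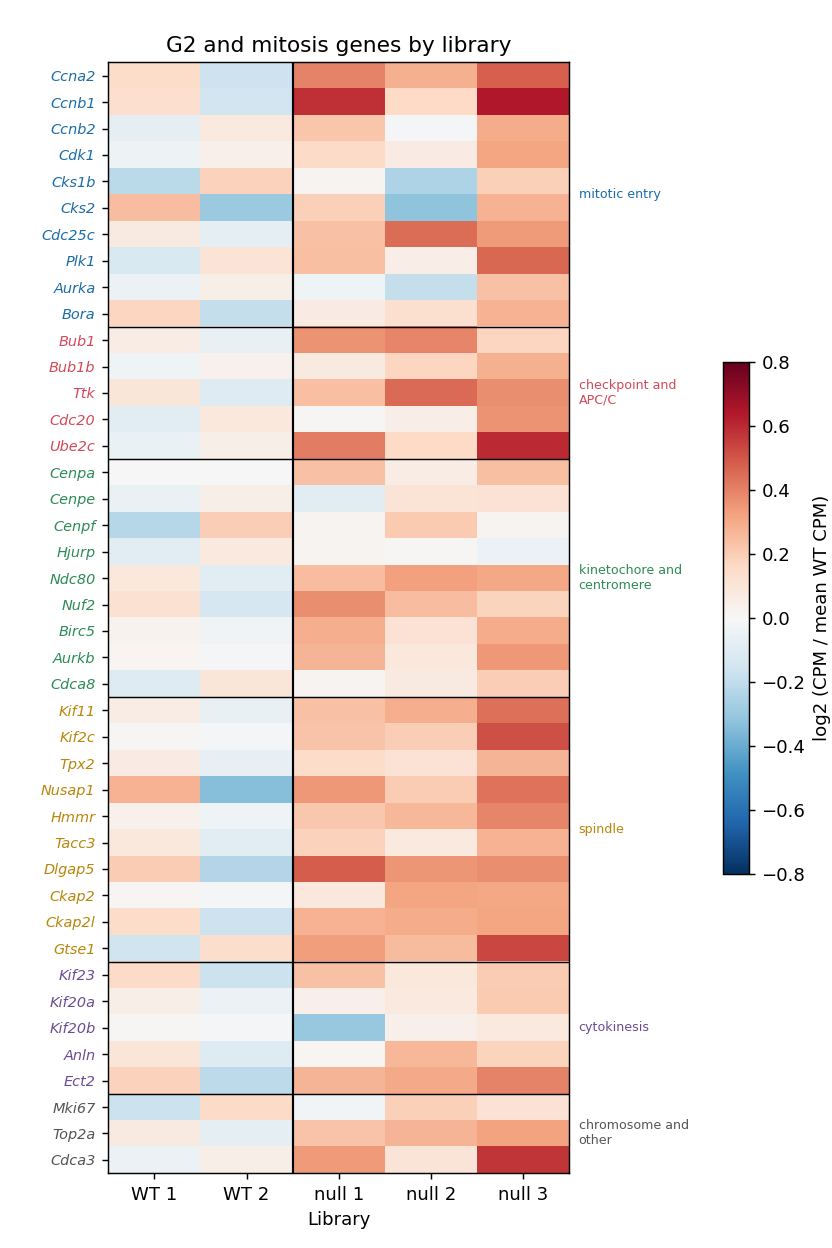
Each cell gives log2 of a gene's CPM in 1 library over its mean WT CPM (red higher, blue lower; colour scale from -0.8 to 0.8), with 42 genes in rows by role and the 5 libraries in columns. The column of null library 3 is the reddest, with 39 of 42 genes above both WT libraries, against 29 in null library 1 and 30 in null library 2.

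The libraries differed in order as well as in group. Of the 42 genes, 30 were highest of all 5 libraries in null library 3, 8 in null library 2, 3 in null library 1 and 1 in WT library 2. The lowest value was in WT library 2 for 24 genes and in WT library 1 for 13, and in null libraries 1 and 2 for 2 and 3. Summed over the 42 genes, the level was 5343 and 5229.9 CPM in the WT pair, against 5996, 5819 and 6424 CPM in null libraries 1, 2 and 3. The sums did not overlap between groups, and the WT pair differed by less than any null library differed from either. The median of the 42 log2 values against the WT mean came to 0.23, 0.16 and 0.31 for null libraries 1, 2 and 3. For single genes the picture was less even: in 26 of 42 the log2 fold change was larger in size than the log2 gap between the 2 WT libraries, whose median was 0.17, and in 19 of 42 it was larger than the log2 range of the null libraries, whose median was 0.21. With single libraries left out, the log2 fold change shrank by over 1.5 times or changed sign in 14 of 42 genes without WT library 2, in 14 without null library 3, in 10 without WT library 1, in 4 without null library 2 and in 3 without null library 1. It grew in size by over 1.5 times in 9 genes without WT library 1 and in 7 without WT library 2. Without null libraries 1, 2 and 3 in turn, it did so in 4, 5 and 1.

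Levels of the 42 genes spanned 30.0-fold per exon length, and their order was nearly the same in both genotypes. Counts per gene and library ran from 176 to 5566. On the scale of CPM per kb of exon, Cks1b was highest in WT, at 85.7 and 113 in the WT pair, against 101, 83.7 and 114 in null libraries 1, 2 and 3. Ccnb2 was next, at 93.9 and 105 in the WT pair, against 116, 98.2 and 122 in null libraries 1, 2 and 3, followed by Cks2 and Hjurp. Each neighbour in this order overlapped the next between the WT libraries, so their order is not resolved. The median gene had 28.4 CPM per kb in WT. At the low end stood Cenpf, at 2.82 and 3.80 in the WT pair, against 3.37, 3.83 and 3.36 in null libraries 1, 2 and 3, and Cenpe, at 4.24 and 4.54 in the WT pair, against 4.14, 4.73 and 4.76 in null libraries 1, 2 and 3, with Ndc80 and Kif20b next. The WT levels of Cenpe, Ndc80 and Kif20b overlapped, and both WT values of Cenpf lay below all of theirs. Exon length here counts every annotated exon, so a gene with long unused exons is given too low a level. The rank correlation between the mean WT and mean null level over the 42 genes was 0.993, a description of libraries that share their annotation and scaling. The log2 fold change had a rank correlation of -0.162 with the WT level per kb and of -0.137 with exon length over the 42 genes.

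**Figure D4:**
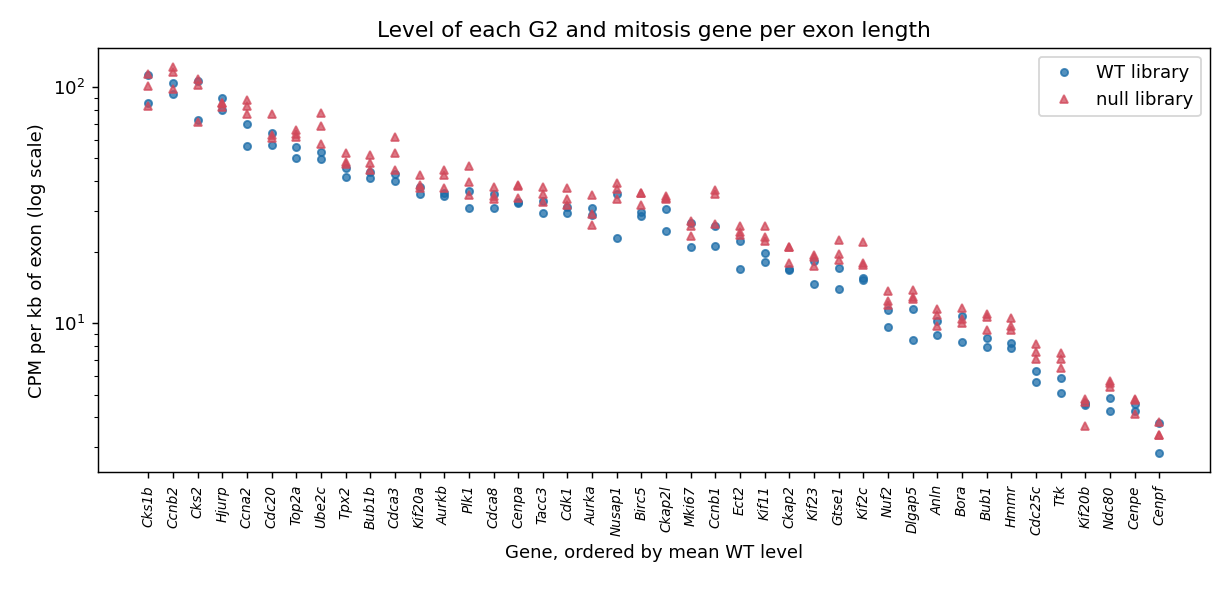
Level of each of the 42 genes in CPM per kb of exon (y axis, log scale), 1 point per library (circles WT, n = 2; triangles null, n = 3), ordered by the mean WT level. Cks1b, Ccnb2, Cks2 and Hjurp lie at the top and Cenpf at the bottom, and null points overlap or sit slightly above WT points for most genes.

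Of 125 tested genes from a list of 127 others that act in mitosis, 1 passed as higher and 0 as lower (2.15% and 0.334% of all genes tested). 100 had a positive and 25 a negative log2 fold change, with a median of 0.13, and at an unadjusted p under 0.05, 23 were higher and 1 was lower (7.99% and 4.84% of all genes tested). The gene that passed was Cdc25b, a phosphatase that activates cyclin-CDK1 at the onset of mitosis. Cdc25b rose, with 73.3 ± 8.11 CPM for WT (mean ± SD, n = 2) against 118 ± 19.1 CPM for null (n = 3) and a log2 fold change of 0.69 ± 0.14 (standard error, adjusted p = 0.0251 by edgeR). It stood at 67.6 and 79.04 CPM in WT libraries 1 and 2, against 135, 97.5 and 122 CPM in null libraries 1, 2 and 3, so the groups did not overlap. It passed in DESeq2 and limma-voom too (adjusted p = 0.00184 and 0.0378), but in edgeR it no longer passed when a single library was left out, for WT 1, WT 2, null 1 and null 3 (edgeR adjusted p = 0.18, 0.208, 0.051 and 0.0605). Its relative Cdc25c is described with the entry genes.

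By group, the others went as follows. Among 19 cohesin and condensin genes, which hold sister chromatids together and compact chromosomes, 18 had a positive log2 fold change (median 0.16). Ncapg2, a subunit of condensin II, stood at 56.98 and 61.1 CPM in WT libraries 1 and 2, against 74.7, 90.8 and 82.98 CPM in null libraries 1, 2 and 3. Its log2 fold change was 0.49 ± 0.12 (standard error, adjusted p = 0.0552 by edgeR). It passed in edgeR with no filter on low counts (edgeR adjusted p = 0.00965) and in DESeq2 (adjusted p = 0.0417). Further kinetochore and centromere genes had 25 of 30 positive (median 0.14), and the lowest p was that of Ska2, a kinetochore protein of the SKA complex, at a log2 fold change of 0.37 ± 0.13 (standard error, adjusted p = 0.234 by edgeR). Further spindle and cytokinesis genes had 23 of 26 positive (median 0.13), with Shcbp1 at 0.52 ± 0.15 (standard error, adjusted p = 0.128 by edgeR). The 24 further checkpoint and APC/C genes, many of them constant subunits of the complex, had 17 positive and a median of 0.093. Fbxo5, an inhibitor of APC/C also called EMI1, had the lowest p of these, with a log2 fold change of 0.43 ± 0.14 (standard error, adjusted p = 0.202 by edgeR). Of 10 tested further entry regulators, 6 lay above 0 and 4 below. Pkmyt1, a kinase that inhibits CDK1, was the gene lower at an unadjusted p under 0.05, at a log2 fold change of -0.33 ± 0.13 (standard error, adjusted p = 0.305 by edgeR).

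No regulator that acts on these promoters passed the test, but most had slightly higher mean levels in the null libraries. Of 16 genes for DREAM, MuvB, FOXM1, B-MYB and NF-Y subunits, 0 passed with any of the 3 tools. In edgeR 2.15% of all genes tested passed as higher and 0.334% as lower. At an unadjusted p under 0.05 there were 0 in edgeR and DESeq2 and 1 in limma-voom. The shares of all genes tested were 7.99% higher and 4.84% lower in edgeR, 6.82% and 3.11% in DESeq2, and 7.55% and 4.84% in limma-voom. Of the 16 log2 fold changes in edgeR, 11 lay above 0 and 5 below (median 0.13), where 49.2% of all genes tested lay above 0. The edgeR shares also stand beside the counts of the lists that follow. Summed, the 16 stood at 2012 and 2022 CPM in the WT pair, against 2110, 2140 and 2194 CPM in the null libraries. These sums did not overlap between groups. Foxm1 stood at 127 and 149 CPM in WT libraries 1 and 2, against 151, 151 and 147 CPM in null libraries 1, 2 and 3, a log2 fold change of 0.12 ± 0.11 (standard error, adjusted p = 0.728 by edgeR). Mybl2, which encodes B-MYB, stood at 55.8 and 63.2 CPM in WT libraries 1 and 2, against 61.3, 58.99 and 58.7 CPM in null libraries 1, 2 and 3, a log2 fold change of 0.005 ± 0.11 (standard error, adjusted p = 0.993 by edgeR), and its null libraries lay between the 2 WT libraries. The MuvB subunit gene Lin9 had the lowest p, with a log2 fold change of 0.26 ± 0.12 (standard error, adjusted p = 0.398 by edgeR). For comparison, 48 of 51 S phase and DNA replication genes lay above 0 (median 0.13), and 1 passed, Rrm2, a subunit of ribonucleotide reductase, at a log2 fold change of 0.97 ± 0.12 (standard error, adjusted p = 0.00109 by edgeR), which did not pass without WT library 2 (edgeR adjusted p = 0.0763). Of 10 tested genes of CDK inhibitors and quiescence, 1 rose, Rb1, at a log2 fold change of 0.64 ± 0.14 (standard error, adjusted p = 0.0387 by edgeR), and that call was lost in limma-voom and without either WT library, null library 1 or null library 3. Whether the mitotic genes differ in size of change from these lists was not tested.

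Transcripts of some other cell types, but not all, differed by genotype in the same libraries. The filter on low counts can keep a marker through the null libraries alone, which favours markers high in null among those tested. Of all genes tested in edgeR, 2.15% passed as higher and 0.334% as lower. At an unadjusted p under 0.05, 7.99% were higher and 4.84% lower. These shares stand beside the marker counts that follow. Of 16 B lineage markers, 15 rose, and none was at 0 in WT. Their summed level was 241 and 115 CPM in the WT pair, against 1332, 763 and 1274 CPM in null libraries 1, 2 and 3. It was higher in all null libraries and lowest of them in null library 2, as was the sum of the mitotic genes. The B lineage sum was highest in null library 1, however, and the mitotic sum in null library 3. Of 12 tested endothelial and stromal markers, 6 rose, with 14 markers summing to 277 and 322 CPM in the WT pair, against 481, 494 and 391 CPM in null libraries 1, 2 and 3, and 2 of the 14 had no WT count. Of 8 cartilage markers, 4 were tested and 3 rose in edgeR (0 passed in limma-voom). They summed to between 20.2 and 153 CPM in null, and 4 of the 8 had no WT count. Mature neutrophil markers (12) summed to 150.4 and 112 CPM in the WT pair, against 2307, 612 and 139 CPM in null libraries 1, 2 and 3, with 0 of 9 tested past the threshold and 8 higher at an unadjusted p under 0.05. The sum of null library 3 lay between the WT sums and that of null library 1 was the highest, while that of the mitotic genes was highest in null library 3. Late erythroid markers (7) summed to at most 34.96 CPM in any library. T and NK markers (10) summed to between 51.2 and 62.5 CPM in all 5 libraries. Genes of the LSK gate (8) summed to 3325 and 3540.4 CPM in the WT pair, against 2712, 2926 and 2819.5 CPM in null libraries 1, 2 and 3. In edgeR 7 had a negative log2 fold change and 1 a positive one (0.60). At an unadjusted p under 0.05, 4 were lower and 0 higher. Of these 8, 0 passed as higher and 1 as lower, and that call was lost when WT 2, null 2 or null 3 was left out. The part of these cells in the mitotic transcripts was not tested.

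**Figure D5:**
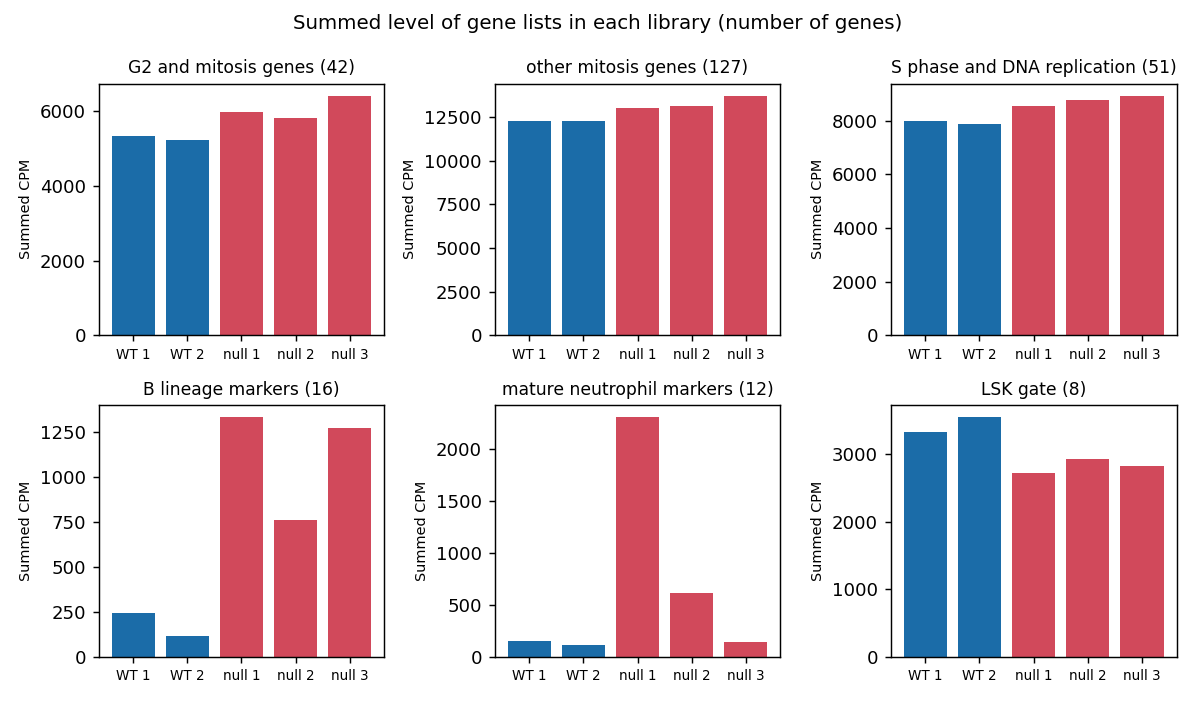
Summed TMM-normalised CPM (y axis, from 0) of 6 gene lists in each of the 5 libraries (x axis; blue WT, red null), with the number of genes in brackets. The 42 mitotic genes sum to 5343 and 5229.9 CPM in WT and to between 5819 and 6424 CPM in null, while B lineage markers go from at most 241 CPM in WT to at least 763 CPM in null and LSK gate genes are lower in null.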

How the data were processed

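Whole transcriptomes of 5 LSK libraries were measured (WT n = 2, null n = 3). Per the labels' protocols, libraries were made from 3.6 to 5 ng of RNA with ribosomal depletion, and fragments were read as 2 reads of 50 bp. The submitters aligned with STAR to mm10 and counted with featureCounts, per the submitters' processing notes. The values the authors deposited are raw read counts, 1 whole number for each gene and library. Their versions, annotation release and strand setting are not given in those notes. The labels name polyA RNA as the molecule, which differs from the protocol. Symbols, coordinates and exon lengths came from GENCODE M21 (mm10), which matched 99.5% of identifiers.

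Genes kept by filterByExpr (13467) were scaled with TMM and tested with edgeR 4.0.16 in R 4.3.3 (quasi-likelihood, genotype as the only term, 3 residual degrees of freedom). Standard errors came from the F statistic. CPM are TMM-normalised. Alternatives were RLE and upper quartile factors, no filter, DESeq2 1.42.0, limma-voom (limma 3.58.1), each library left out, and a stricter filter (CPM of 1 or more throughout). Relative values per library used log2 CPM with a prior count of 2. Promoter sequences are from RefSeq. Code was tested on simulated counts. Genes were listed by role. All 42 may be named, with values per library for Mki67, Top2a, Ccna2, Ccnb1, Ccnb2, Cdk1, the 2 lowest p of each role, genes with a negative change and those at the ends of the level scale. Of other cell cycle lists, genes past the threshold and the lowest p were named. Marker lists of the gate and of other cell types are given as counts and sums, and their genes past the threshold are not named. Any further gene, or further values per library, were chosen after the values were seen. The 42 genes and the lists were chosen with earlier results of these data known.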

Additional observations from a re-analysis of the deposited data

How the results depend on the processing

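Across 11 alternatives, 32 of the 42 mitotic genes had the same sign of log2 fold change in every fit. Of 462 gene values, 3 passed the threshold, those of Ccnb1 (no filter, without null library 2) and Ube2c (no filter). The median log2 fold change of the 42 genes ranged from 0.17 to 0.27 with each library left out. Over the whole table, dropping the filter gave 602 higher and 155 lower genes, 2 of the 42 were higher, and 4 of the other mitosis genes were higher. The stricter filter gave 173 genes higher. DESeq2 gave 2 other mitosis genes higher, and 11 of the 42 higher at an unadjusted p under 0.05. When single libraries were left out, 32 to 316 genes passed as higher and 0 to 51 as lower, 0 to 1 of the 42 higher, 3 to 16 of the 42 higher at an unadjusted p under 0.05, 0 to 2 with every null library below WT, and 0 to 1 other mitosis genes higher. The causes of these shifts were not tested.

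The log2 fold change of Cks1b was -0.0076 with upper quartile factors, -0.00058 with no filter, -0.00045 in DESeq2 and -0.196 to 0.215 with each library left out. The same ranges were -0.175 to 0.360 for Cks2, -0.109 to 0.112 for Aurka, -0.00861 to 0.341 for Bora, -0.0110 to 0.115 for Cenpe, -0.124 to 0.316 for Cenpf, -0.0963 to 0.0768 for Hjurp, -0.00654 to 0.200 for Cdca8, -0.122 to 0.0590 for Kif20b and -0.0700 to 0.272 for Mki67. No paired analysis was possible because the labels give no replicate numbers shared between the groups. 2 WT libraries limit every result, and with 1 left out the spread of the lone WT library is taken from the null group.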
